A study of Mus musculus with 12 samples.

Results

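A locus was counted here as closed by PD only in Hras.E1A when an ATAC-seq peak was present in Hras.E1A, Hras.Myc and Hras.Myc+PD cells, and no peak was present in Hras.E1A+PD cells. ATAC-seq marks open chromatin through the insertion of adapters by the Tn5 transposase. The peaks of all 7 deposited lists were merged where they overlapped by 1 bp or more, which gave 147985 loci, and a locus was open in a group when a peak of its list overlapped it. Of these loci, 4908 met the rule. They were 12.3% of the 39830 loci open in Hras.E1A, Hras.Myc and Hras.Myc+PD, and that share is fixed by the rule and is no finding: the loci were selected on the presence or absence of a peak in these 4 lists. A peak was also present in Hdac7SA.Mef2d cells at 3991 of the 4908 loci and absent there at 917. Without the condition on Hras.Myc, 38.9% of all loci open in Hras.E1A had no peak in Hras.E1A+PD.

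The samples were transformed mouse embryonic fibroblasts (MEFs), labelled as OG2 cells that carry an Oct4-GFP reporter, although the growth protocol names ICR embryos. The 7 groups were Hras.E1A+PD, Hras.E1A+TSA, untreated Hras.E1A, Hras.Myc+PD, Hras.Myc+TSA, untreated Hras.Myc and untreated Hdac7SA.Mef2d. Each line carried a pair of transgenes, activated Hras with the adenoviral oncoprotein E1A, activated Hras with Myc, or a mutant Hdac7 with Mef2d, so all Hras groups share activated Hras and no group lacks a transgene. PD is PD0325901, an inhibitor of the kinase MEK, TSA is trichostatin A, an inhibitor of histone deacetylases, and both were given for 2 days. The TSA groups had 1 library each and the other groups 2, and all libraries of a group were pooled in 1 list. No p-value can therefore be given, and the intervals below cover counting error over loci only. Wildtype MEFs were not analysed here.

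MEK is the kinase that activates ERK, and the Hras oncoprotein signals through this cascade. ERK phosphorylates and induces FOS and JUN family proteins, which pair to form AP-1, a factor that binds the palindrome TGANTCA at enhancers. In fibroblasts AP-1 is known for its place at enhancers of growth, adhesion and invasion genes, where TEAD and RUNX factors often bind beside it. The study set these lines side by side because Hras.E1A MEFs can be induced to reprogram by MEK inhibition and Hras.Myc MEFs cannot.

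The sequences of 8 distal loci show what was lost. They are the loci with the highest scores that a fixed rule selects, 3 with and 1 without an AP-1 motif, first where Hdac7SA.Mef2d cells had a peak and then where they had none. Each line gives the nearest protein-coding gene and the central 200 bp of the locus on the forward strand of GRCm38, 5′ to 3′, with every AP-1 motif in capitals.
Hipk2: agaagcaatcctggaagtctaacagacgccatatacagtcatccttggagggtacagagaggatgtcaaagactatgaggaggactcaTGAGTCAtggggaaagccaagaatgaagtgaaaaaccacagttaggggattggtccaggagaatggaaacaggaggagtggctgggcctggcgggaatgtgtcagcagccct
Rbfox1: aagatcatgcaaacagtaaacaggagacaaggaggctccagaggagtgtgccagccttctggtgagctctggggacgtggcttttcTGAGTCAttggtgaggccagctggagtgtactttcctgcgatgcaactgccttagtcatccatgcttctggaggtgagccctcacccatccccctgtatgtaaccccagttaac
Bend6: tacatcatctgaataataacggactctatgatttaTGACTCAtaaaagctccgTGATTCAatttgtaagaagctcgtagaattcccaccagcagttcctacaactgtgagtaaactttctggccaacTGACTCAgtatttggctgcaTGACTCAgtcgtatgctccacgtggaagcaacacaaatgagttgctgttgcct
Camk2d: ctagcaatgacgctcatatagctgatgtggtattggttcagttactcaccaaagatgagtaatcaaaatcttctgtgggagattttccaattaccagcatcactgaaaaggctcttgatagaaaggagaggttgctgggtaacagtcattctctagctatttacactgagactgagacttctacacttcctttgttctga
Lsamp: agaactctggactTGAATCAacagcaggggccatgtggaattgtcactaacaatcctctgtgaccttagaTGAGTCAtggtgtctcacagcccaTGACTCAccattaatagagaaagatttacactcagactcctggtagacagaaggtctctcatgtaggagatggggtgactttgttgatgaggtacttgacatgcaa
Tmem260: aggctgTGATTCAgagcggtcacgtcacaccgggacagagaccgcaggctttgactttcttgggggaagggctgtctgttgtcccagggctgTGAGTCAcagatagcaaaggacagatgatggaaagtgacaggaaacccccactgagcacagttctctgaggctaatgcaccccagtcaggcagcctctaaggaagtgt
Prokr2: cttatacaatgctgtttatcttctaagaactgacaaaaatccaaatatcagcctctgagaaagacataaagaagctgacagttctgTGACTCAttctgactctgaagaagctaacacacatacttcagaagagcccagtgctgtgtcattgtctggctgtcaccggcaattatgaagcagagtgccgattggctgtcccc
Gmds: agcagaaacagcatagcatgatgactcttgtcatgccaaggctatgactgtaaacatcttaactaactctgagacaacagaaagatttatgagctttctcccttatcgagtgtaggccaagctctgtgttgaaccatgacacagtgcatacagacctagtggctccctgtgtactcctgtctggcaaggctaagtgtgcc

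The first sequence spans chr6:38829515-38829714, in an intron of Hipk2, a nuclear serine/threonine kinase. The second spans chr16:6963613-6963812, in an intron of Rbfox1, a neuronal splicing factor. The third spans chr1:33900231-33900430, in an intron of Bend6, and holds 4 AP-1 motifs. The fourth, without an AP-1 motif, spans chr3:126570782-126570981, between genes and upstream of Camk2d, a calcium/calmodulin-dependent kinase subunit. Where Hdac7SA.Mef2d had no peak, the sequences span chr16:40685649-40685848 in an intron of Lsamp, a neuronal adhesion protein, with 3 AP-1 motifs, and chr14:48422111-48422310 upstream of Tmem260, with 2. The last pair spans chr2:132410187-132410386 upstream of Prokr2, a prokineticin receptor, and chr13:32143688-32143887 in an intron of Gmds, an enzyme of GDP-fucose synthesis. The Gmds sequence holds no AP-1 motif. None of the 8 lies in an exon.

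Peak scores are given as a percentile within their own list, because the scale of the deposited score is not stated. The Hipk2 locus stood at percentile 99.8 in Hras.E1A+TSA, 99.9 in Hras.E1A, 99.8 in Hras.Myc+PD, 99.6 in Hras.Myc+TSA, 99.8 in Hras.Myc and 98.4 in Hdac7SA.Mef2d, and the nearest Hras.E1A+PD peak was 15302 bp away. The Bend6 locus stood at 99.3 in Hras.E1A+TSA, 100 in Hras.E1A, 99.3 in Hras.Myc+PD, 99.8 in Hras.Myc+TSA, 100 in Hras.Myc and 99.8 in Hdac7SA.Mef2d, with the nearest Hras.E1A+PD peak at 6830 bp. Both were therefore among the highest-scoring peaks of 6 lists and were not called at all in the remaining list. The Gmds locus was less even: its percentile was 53.5 in Hras.E1A+TSA and 71.5 in Hras.Myc+TSA, against 99.7 in Hras.E1A without treatment and 98.3 in Hras.Myc, with 96.7 in Hras.Myc+PD.

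Across all 4908 loci the scores were spread widely. The median percentile was 54.2 in Hras.E1A (quartiles 24.5 and 82.6), 38.6 in Hras.Myc+PD (17.8 and 63.9) and 58.9 in Hras.Myc (28.6 and 84.5). The 34922 loci kept in both lines had median percentiles of 57.3 in Hras.E1A, 54.4 in Hras.Myc+PD and 54.6 in Hras.Myc. The median rank of the loci closed only in Hras.E1A was thus lower in Hras.Myc+PD than in the untreated lines, with a wide spread that reached the top of the list, as at Hipk2 and Bend6. At 69.8% of them the percentile was lower in Hras.Myc+PD than in Hras.Myc, with a median difference of -11.4 points, while at the kept loci 47.5% were lower and the median difference was 0.771. These lists took part in the rule, so the values describe the loci and test nothing.

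The rule turns on the presence of a peak, and some loci lay close to its edge. The nearest Hras.E1A+PD peak was 8292 bp away at the median locus, within 500 bp at 77 of the 4908 loci and within 100 bp at 8, the closest at 12 bp. Those 8 loci had a median percentile of 6.05 in Hras.E1A. Just outside the rule, 2226 kept loci had a Hras.E1A+PD peak in the lowest decile of that list, 349 of them with a score under 1.5 where the lowest score is 1.2, and their median percentile in Hras.E1A was 12.5. Because the lists give no counts and no depth, reads can remain at a locus where no peak was called.

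The loci closed by PD only in Hras.E1A were mostly open in the 3 lists that the rule did not use. A peak was present at 91.5% of them in Hras.E1A+TSA (95% interval 90.7 to 92.3), at 86.4% in Hras.Myc+TSA (85.4 to 87.3) and at 81.3% in Hdac7SA.Mef2d (80.2 to 82.4). In 3315 of the 4908 (67.5%) all of these lists had a peak, and in 53 (1.08%) none had. With TSA the peak was thus absent at 8.48% of these loci in Hras.E1A+TSA and at 13.6% in Hras.Myc+TSA, against 3.64% and 9.76% of all loci open in Hras.E1A, Hras.Myc and Hras.Myc+PD. The loss with TSA was more frequent than in that background in both lines, although at most of the loci the peak remained. In Hras.E1A 11.3% of the loci lay in the lowest decile and 16.3% in the highest, against 6.15% and 11.8% of that background. In Hras.Myc+PD these shares were 14.5% and 5.15%, against 7.80% and 10.5%. Loci of like score were not compared and each TSA group was 1 library, so whether TSA accounts for the excess was not tested.

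In each of the 3 lists these loci lay below the loci kept in both lines and above the other sets. The sets differ by definition in how many of the untreated and PD lists had to hold a peak. Kept loci needed the most peaks and loci closed in both lines the fewest. Loci closed only in Hras.E1A had to be open in Hras.Myc+PD, and loci closed only in Hras.Myc had to be closed there. Whether these differences in selection account for the order was not tested. In Hdac7SA.Mef2d the share with a peak was 81.3%, against 95.1% of loci kept in both lines, 61.8% of the 14692 loci closed in both lines and 75.5% of the 5747 loci closed only in Hras.Myc. Among all 39830 loci open in Hras.E1A, Hras.Myc and Hras.Myc+PD, 93.4% had a peak in Hdac7SA.Mef2d. In Hras.Myc+TSA the share was 86.4%, against 90.8%, 81.0% and 70.8% in the same 3 sets. In Hras.E1A+TSA it was 91.5%, against 97.0%, 89.1% and 89.4%. With the full lists, no 95% interval of the 4908 loci overlapped that of another set in the same list. The Hdac7SA.Mef2d list holds the most peaks, and with every list reduced to the 56774 best-scoring peaks the shares in Hdac7SA.Mef2d were 52.2% (50.6 to 53.9), against 63.3%, 36.1% and 39.7%, so the level moved and the order did not. In Hras.Myc+TSA the same reduction gave 86.5% (85.3 to 87.6) against 87.9% (87.5 to 88.3) of kept loci, so that these intervals overlapped.

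**Figure D1:**
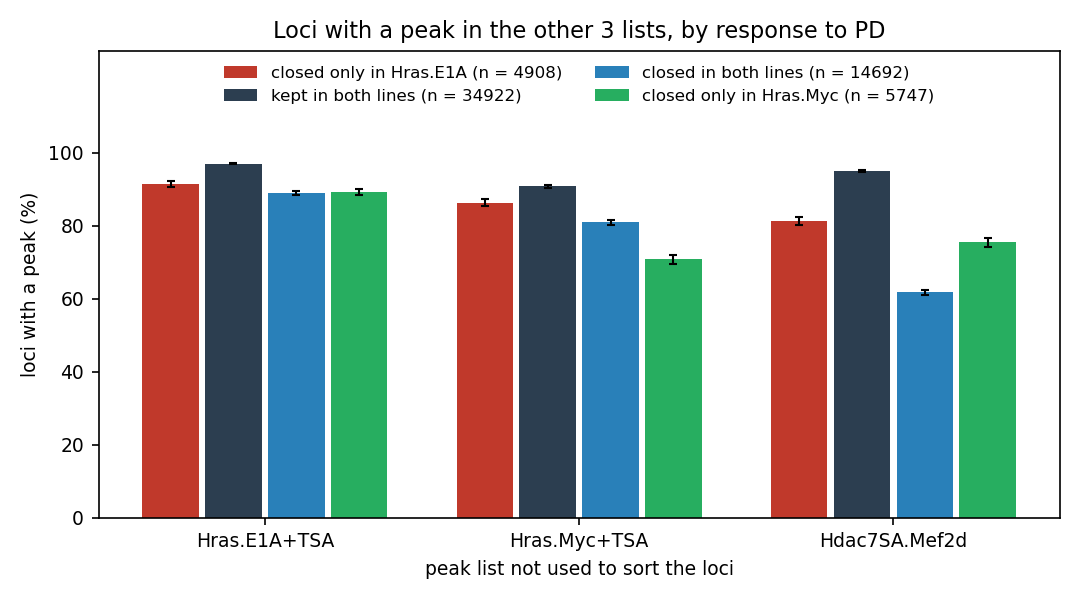
Bars give the percent of loci with a peak in Hras.E1A+TSA, Hras.Myc+TSA and Hdac7SA.Mef2d for the 4908 loci closed only in Hras.E1A and for 3 other sets sorted by their response to PD; lines are exact binomial 95% intervals. In Hdac7SA.Mef2d the loci closed only in Hras.E1A stand at 81.3%, below those kept in both lines at 95.1% and above those closed in both lines at 61.8%. The sets differ by definition in how many of the untreated and PD lists had to hold a peak.

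The 3991 loci with a peak in Hdac7SA.Mef2d scored higher in the other lists than the 917 without one. Their median percentile was 59.8 against 32.1 in Hras.E1A, 41.1 against 27.9 in Hras.Myc+PD and 62.5 against 46.3 in Hras.Myc. The share open with TSA was also higher, at 92.6% (91.8 to 93.4) against 86.8% (84.4 to 88.9) in Hras.E1A+TSA and at 87.2% (86.1 to 88.2) against 82.7% (80.1 to 85.1) in Hras.Myc+TSA. The median difference between Hras.Myc+PD and Hras.Myc was close in both groups, at -11.5 points with and -11.1 points without the Hdac7SA.Mef2d peak. The loci with the peak lay farther from genes, with a median distance to a transcription start site (TSS) of 31048 bp against 22327 bp, and had a lower GC content, at a median of 48.5% against 51.5%.

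Loci closed only in Hras.E1A were distal. Of the 4908, 2203 (44.9%) were intergenic, 2201 (44.8%) intronic, 279 (5.68%) exonic and 225 (4.58%, 4.02 to 5.21) within 1000 bp of a protein-coding TSS. The promoter share was 7.98% without the lowest-scoring 25% of peaks in each list and 2.33% with lists of equal size. Promoters made up 37.3% of loci kept in both lines, 2.57% of loci closed in both lines and 7.92% of loci closed only in Hras.Myc. The median distance to a TSS was 29326 bp, against 8285 bp at kept loci, and 34.1% lay beyond 50000 bp, against 17.9%. Seen from the other side, 225 of 13247 promoter loci that met the other conditions of the rule had lost their peak (1.70%, 1.49 to 1.93), against 4683 of 26583 distal loci (17.6%, 17.2 to 18.1).

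On single chromosomes the share of loci lost ranged between 8.29% on chromosome X (6.57 to 10.3) and 15.5% on chromosome 16 (13.6 to 17.6), leaving out chromosome Y with 3 loci. Of the 4908, 451 (9.19%) had another such locus within 10000 bp, and 4457 stood alone at this spacing, while the others formed 210 pairs, 9 runs of 3 and 1 run of 4. The share with another locus of the same set within 10000 bp was also 9.19% for the 5747 loci closed only in Hras.Myc. It was higher in the larger sets, at 23.5% of the 14692 loci closed in both lines and 42.3% of the 34922 kept loci. This spacing is thus not particular to loci closed only in Hras.E1A. Where the nearest other locus open in Hras.E1A lay within 10000 bp, that neighbour had also lost its peak in 41.2% of 3369 cases (39.5 to 42.9), against 32.5% beside kept loci, 46.7% beside loci closed in both lines and 38.6% beside all loci open in Hras.E1A. The runs of 3 included those whose nearest gene was Pax6, Usp47, a deubiquitinating enzyme, Snx9, a sorting nexin of endocytosis, or Dusp4, a phosphatase of ERK, and these genes were chosen after their values were seen. Nearest here means at any distance, and of these genes Pax6 alone had its 3 loci within 10000 bp of a TSS.

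The AP-1 palindrome TGANTCA was the commonest of the 32 motifs searched. It was present on either strand in the central 200 bp of 3013 of the 4908 loci (61.4%), against 29.2% of all loci of the series. Loci kept in both lines held it in 23.5% after weighting to the GC content of the loci closed only in Hras.E1A, so the ratio was 2.61 (2.52 to 2.70), and the unweighted share was higher on 20 of 20 chromosomes. Against loci closed only in Hras.Myc, with 27.8%, the ratio was 2.21 (2.10 to 2.31), and the unweighted share was again higher on 20 of 20. Against loci closed in both lines, with 65.9%, the ratio was 0.931 (0.908 to 0.955), and the unweighted share was lower on 18 of 20. In AP-1 content the loci closed only in Hras.E1A therefore stood near those closed in both lines and far above those closed only in Hras.Myc.

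**Figure D2:**
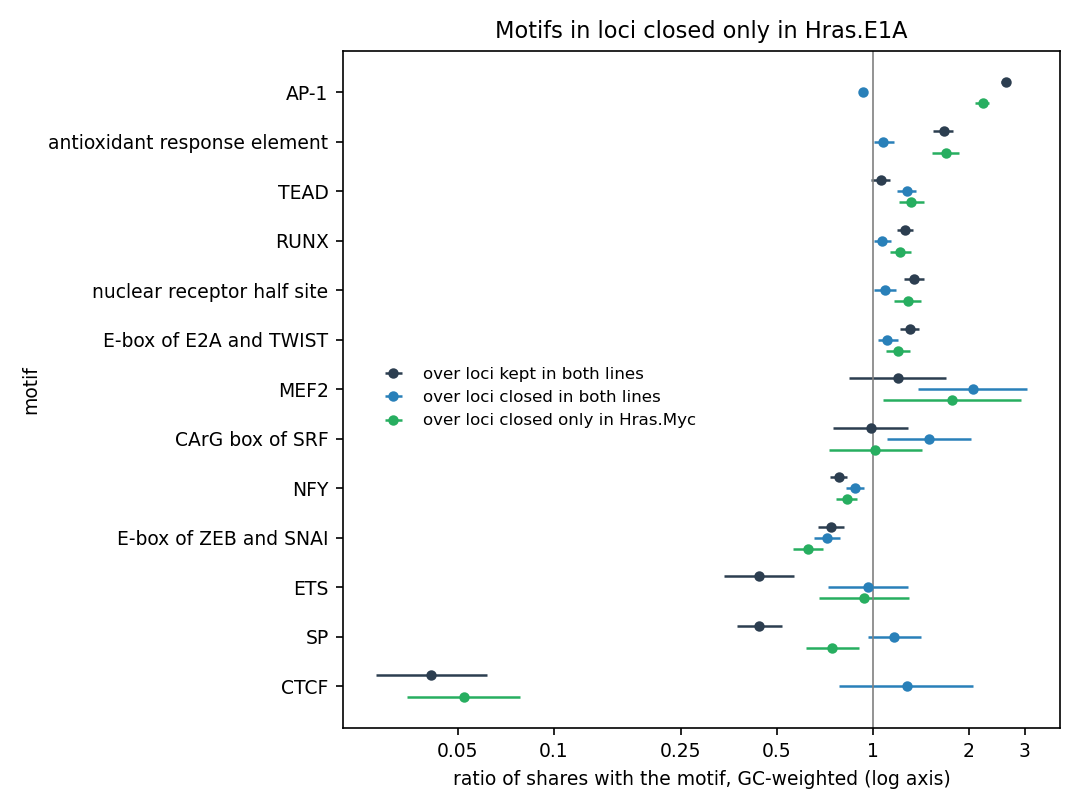
Points give the share of loci with each motif among loci closed only in Hras.E1A, divided by the GC-weighted share in loci kept in both lines, closed in both lines or closed only in Hras.Myc, on a log axis; lines are approximate 95% intervals and the grey line marks equal shares. The 13 motifs shown were chosen after all 32 had been seen; AP-1 stands at 2.61, 0.931 and 2.21, and CTCF at 0.0414, 1.28 and 0.0522.

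The AP-1 sites were close to those of loci closed in both lines in number and place, and to those of every set in form. One site was found at 48% of the loci and 2 or more at 13.4% (12.4 to 14.3), against 2.4% of kept loci, 14.5% of loci closed in both lines and 3.10% of loci closed only in Hras.Myc. The middle base was C or G, the canonical form, in 83.4% of 3741 sites, against 82.6%, 85.3% and 83.3% in the same sets. The site nearest to the centre lay within 25 bp of it in 45.6% of loci with the motif (43.8 to 47.4). In the same sets this share was 41.0% (39.7 to 42.3), 45.5% and 42.7%, so the interval of kept loci lay below. The Hipk2, Rbfox1 and Prokr2 sequences printed above show this arrangement, with the single site starting at base 89, 87 and 87 of 200.

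**Figure D3:**
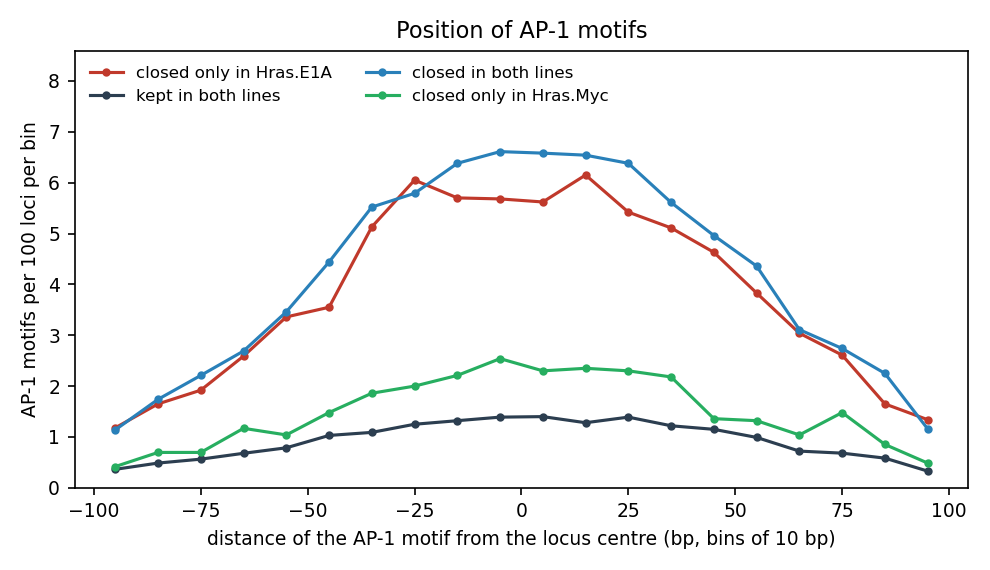
Lines give the number of AP-1 motifs per 100 loci in bins of 10 bp, by distance in bp between the middle of the motif and the centre of the locus, for 4 sets of loci. Loci closed only in Hras.E1A, 61.4% of which hold the motif, follow loci closed in both lines and lie above the other sets across the window, with a broad maximum around the centre.

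The share of loci with AP-1 was higher at higher peak scores in every set. Among loci closed only in Hras.E1A, the share with AP-1 was 37.6% in the lowest quintile of Hras.E1A scores, 50.0%, 60.5% and 68.0% in the following quintiles and 82.9% in the highest (80.8 to 84.9). Loci closed in both lines had 53.4%, 59.6%, 67.6%, 75.7% and 82.7% in the same order. The intervals of these sets overlapped only in the highest quintile, and in the others the loci closed only in Hras.E1A had the lower share. In the lowest and highest quintile, loci closed only in Hras.Myc had 15.0% and 47.3%, and kept loci 8.40% and 30.8%. In every quintile of Hras.E1A scores the AP-1 share was above that of kept loci. These shares were not GC-weighted, promoters were not set apart, and the Hras.E1A list took part in the rule. Whether score accounts for part of the difference was not tested.

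The share of loci that lost their peak was higher with AP-1 at every score. Among loci open in Hras.E1A, Hras.Myc and Hras.Myc+PD, 3013 of 8608 with AP-1 (35.0%, 34.0 to 36.0) had no peak in Hras.E1A+PD, against 1895 of 31222 without AP-1 (6.07%, 5.81 to 6.34). At promoters these shares were 13.5% (10.7 to 16.8) and 1.22%, and at distal loci 36.4% and 9.41%. Without regard to motif, the share lost was 22.7% in the lowest decile of Hras.E1A scores, 9.30% in the 7th decile and 16.9% in the highest decile. With AP-1 it was 54.2%, 33.2% and 31.0% in these deciles, and without AP-1 18%, 3.81% and 4.82%. By score in Hras.Myc+PD the share lost with AP-1 was 48.4% in the lowest decile and 17.8% in the highest. The scores are part of the rule, so these curves are descriptions.

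**Figure D4:**
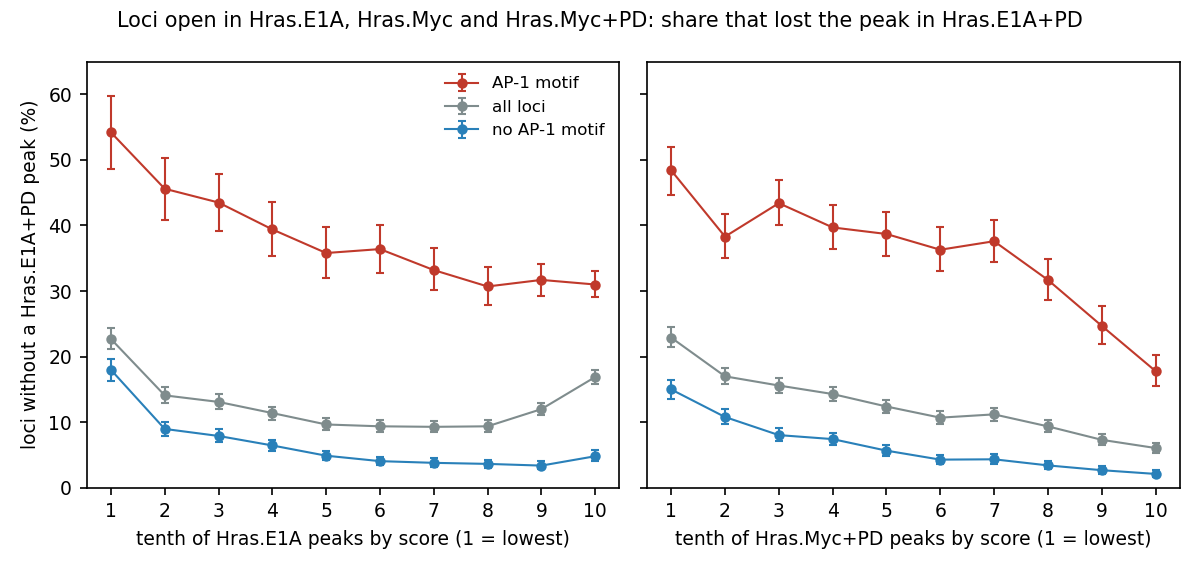
Points give the percent of loci open in Hras.E1A, Hras.Myc and Hras.Myc+PD that had no Hras.E1A+PD peak, by decile of the Hras.E1A scores (left) and of the Hras.Myc+PD scores (right), for loci with AP-1, all loci and loci without AP-1; lines are exact binomial 95% intervals. Loci with AP-1 lie above loci without it in every decile, and over all loci the left curve has a minimum of 9.30% in the 7th decile with 16.9% in the highest.

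Without regard to AP-1, the TEAD motif was more frequent than in either of the other closed sets and, only after GC weighting, near its share in kept loci. The motif searched for TEAD, the DNA-binding partners of YAP, was GGAATG, present in 18.4% of the loci and in 18.9% of all loci of the series. Its ratio was 1.28 (1.19 to 1.37) over loci closed in both lines and 1.32 (1.21 to 1.45) over loci closed only in Hras.Myc, with a higher unweighted share on 18 of 20 chromosomes each, and 1.06 (0.988 to 1.13) over kept loci. Kept loci held it in 17.4% with GC weighting and 13.4% without. The unweighted share of the loci closed only in Hras.E1A was higher than that of kept loci on 19 of 20 chromosomes. Among loci with AP-1, TEAD was present in 17.8% (16.4 to 19.2) of those closed only in Hras.E1A, against 21% of those kept and 14.8% of those closed in both lines. Loci closed only in Hras.Myc that held AP-1 had TEAD in 16.1% (14.3 to 18.1), which overlaps the interval of those closed only in Hras.E1A. In loci without AP-1 the difference from kept loci had the other direction. There TEAD was present in 19.4% (17.6 to 21.2) of those closed only in Hras.E1A, against 12% of those kept. Without AP-1, loci closed in both lines had TEAD in 14.3% and loci closed only in Hras.Myc in 12.2%. The shares split by AP-1 were not GC-weighted. RUNX, searched as TGTGGT, was found in 21.8%, with a ratio of 1.26 (1.19 to 1.34) over kept loci and 1.07 (1.01 to 1.14) over loci closed in both lines, and in 18.9% of all loci.

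The antioxidant response element bound by NRF2 and BACH factors, searched as TGACNNNGC, shares its first letters with AP-1. It was found in 17.6% of the loci and 10.9% of all loci, with a ratio of 1.67 (1.55 to 1.79) over kept loci. Over loci closed in both lines the ratio was 1.08 (1.01 to 1.17). In loci without AP-1 its share was 13.5% (12 to 15.1), against 9.83% of kept loci. Loci closed in both lines without AP-1 had 12.8% (11.9 to 13.8), and these intervals overlap, so the element is not particular to loci closed only in Hras.E1A. The nuclear receptor hexamer AGGTCA had a ratio of 1.35 (1.25 to 1.45) over kept loci and 1.09 (1.01 to 1.18) over loci closed in both lines, and was present in 16.0% of the loci and 12.2% of all loci.

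Several motifs were rarer at the loci closed only in Hras.E1A than at kept loci, and for CTCF the ratio was farther from 1 than that of AP-1. The CTCF consensus, bound by the factor that marks insulators and loop anchors, was found in 24 of 4908 loci (0.489%), against 11.8% of kept loci after GC weighting, a ratio of 0.0414 (0.0277 to 0.0618), and 2.98% of all loci. Loci closed only in Hras.Myc held it in 9.37% and loci closed in both lines in 0.383%. The E-box of the ZEB and SNAI repressors, searched as CAGGTG, was present in 9.43% of the loci and 9.32% of all loci, and was below each comparison set, with ratios of 0.739 (0.674 to 0.811) over kept loci, 0.719 (0.653 to 0.792) over loci closed in both lines and 0.628 (0.564 to 0.699) over loci closed only in Hras.Myc. ETS, searched as CCGGAAG, and SP, searched as CCCGCCC, had ratios of 0.440 (0.341 to 0.567) and 0.441 (0.375 to 0.519) over kept loci, but 0.964 (0.722 to 1.29) and 1.17 (0.968 to 1.42) over loci closed in both lines, and they were present in 2.17% and 6.20% of all loci. NRF1 and C/EBP, with ratios of 0.111 and 4.00 over kept loci, were found at 5 and 8 of the loci closed only in Hras.E1A. The 96 ratios of the 32 motifs are not adjusted for their number, and the motifs given were chosen after all had been seen.

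Loci with and without a peak in Hdac7SA.Mef2d also differed in motifs. AP-1 was present in 63.3% of the 3991 with the peak and 53.1% of the 917 without it, a GC-weighted ratio of 1.16 (1.08 to 1.25), with a higher unweighted share on 18 of 20 chromosomes. The loci with the peak also scored higher, with a median percentile in Hras.E1A of 59.8 against 32.1. Among all loci closed only in Hras.E1A, the AP-1 share was 37.6% in the lowest quintile of Hras.E1A scores and 82.9% in the highest. The ratios of this split were not weighted for score, so whether score accounts for the motif differences was not tested. TEAD was present in 19.5% with and 13.7% without the peak (1.40, 1.16 to 1.70). The CArG box of SRF, the factor of actin and immediate-early genes, was found at 62 loci with the peak (1.55%) and 2 without it (0.218%), and in 1.23% of all loci. The MEF2 motif, bound by the Mef2d transgene product among others, was found at 38 loci (0.952%) and 3 loci (0.327%), a GC-weighted ratio of 2.14 with an interval of 0.632 to 7.25 that spans 1, and in 0.880% of all loci. The CAGGTG E-box was present in 8.67% with and 12.8% without the peak, which after GC weighting gave 0.838 (0.679 to 1.04).

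The loci were spread thinly over genes. Of the 4908, 1194 lay within 10000 bp of a protein-coding TSS, and they fell to 1131 genes, of which 59 had 2 or more, 3 had 3 or more and 1 had 4. Within this distance 19589 loci met the other conditions of the rule, so 6.10% (5.76 to 6.44) were lost. The 12 genes with the most such loci were Sept9, Akap2, Pax6, Daam1, Hspg2, Wnt7b, Eif4e, Fhad1, Hrh1, Lbx1, Mdfi and Myo18a. Among them Sept9 encodes a septin, Daam1 a formin of the planar cell polarity branch of Wnt signalling, Myo18a an unconventional myosin and Hspg2 the basement membrane proteoglycan perlecan.

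Sept9, at chr11:117199661-117362325, had 4 of these loci, all with 1 AP-1 motif and all with a peak in Hdac7SA.Mef2d. The locus at chr11:117275995-117276394, in an intron, stood at percentile 54.0 in Hras.E1A+TSA, 77.6 in Hras.E1A, 45.1 in Hras.Myc+PD, 51.7 in Hras.Myc+TSA, 67.4 in Hras.Myc and 97.8 in Hdac7SA.Mef2d. The promoter locus at chr11:117331352-117331751 stood at 19.7, 60.1, 4.96, 29.5, 25.9 and 15.5 in the same lists, and a Hras.E1A+PD peak lay 451 bp away. The gene and its flanks also held 8 loci closed in both lines, 7 kept in both and 4 closed only in Hras.Myc, so every kind of response was found along one gene.

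**Figure D5:**
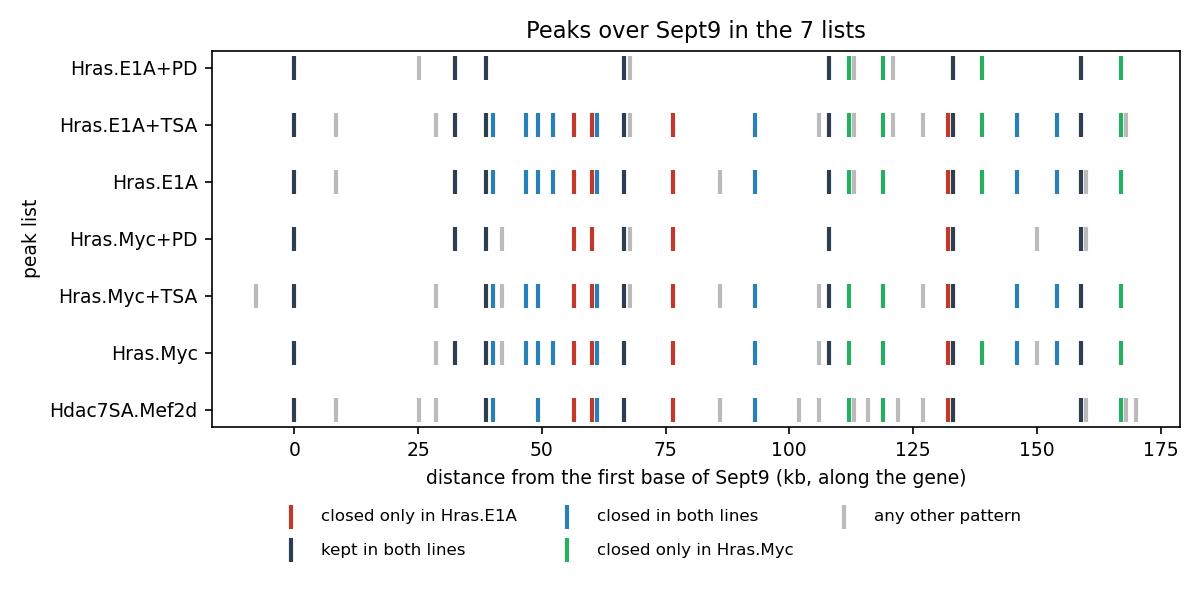
Marks give the peaks over Sept9 and 10 kb on either side in each of the 7 lists, by distance in kb from the first base of the gene, coloured by how the locus responded to PD. The 4 loci closed only in Hras.E1A are missing from the Hras.E1A+PD row and present in the 6 others.

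At Hspg2, 4 loci lay within 50000 bp. The exonic locus at chr4:137500927-137501326 stood at percentile 94.7 in Hras.E1A+TSA, 95.2 in Hras.E1A, 75.2 in Hras.Myc+PD, 93.5 in Hras.Myc+TSA, 83.7 in Hras.Myc and 79.3 in Hdac7SA.Mef2d, with 1 AP-1 motif. The intronic locus at chr4:137476611-137477010, without AP-1, stood at 4.76 in Hras.E1A and 7.97 in Hras.Myc+PD and had no peak in Hras.Myc+TSA. The gene thus held both a high-ranking and a low-ranking locus of this kind.

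At Pax6, a transcription factor of eye and brain development, 3 loci within 10000 bp were lost, none with AP-1, and their percentiles in Hras.E1A were 40.3, 2.09 and 8.08. At Wnt7b, a Wnt ligand, the 2 loci within 10000 bp had no peak in Hdac7SA.Mef2d, and the intronic one at chr15:85574546-85574945 stood at 59.5 in Hras.E1A and 1.62 in Hras.Myc+PD, and the promoter one at 7.04 and 3.96. Its 2 further loci within 50000 bp, both with AP-1, stood at 14.3 and 34.8 in Hras.E1A. At Lbx1, a homeobox factor of muscle precursors and spinal cord, the 3 loci within 50000 bp stood at 13.8, 0.410 and 8.85 in Hras.E1A and none held AP-1.

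The share lost at genes of ERK feedback and of AP-1 itself was near that of all genes, 6.10% within 10000 bp and 10.1% within 50000 bp. Of 53 loci within 10000 bp of 23 ERK targets and feedback regulators, 3 were lost (5.66%, 1.18 to 15.7), at Dusp2, Dusp7 and Egr3, and within 50000 bp 11 of 93 (11.8%). Dusp7 encodes a phosphatase of ERK, and its locus at chr9:106378006-106378405, with 1 AP-1 motif, stood at 98.6 in Hras.E1A+TSA, 90 in Hras.E1A, 56.6 in Hras.Myc+PD, 87.6 in Hras.Myc+TSA, 93.1 in Hras.Myc and 70.7 in Hdac7SA.Mef2d. Within 10000 bp the loci of the other genes ranked lower, at 4.28 in Hras.E1A and 4.95 in Hras.Myc+PD for Dusp2 and at 27.9 and 18.9 for Egr3. A further Dusp2 locus within 50000 bp, at chr2:127323655-127324054 with 1 AP-1 motif, ranked high in the untreated lines. It stood at 89.8 in Hras.E1A, 26.9 in Hras.Myc+PD and 93.1 in Hras.Myc. Of 30 loci of 14 AP-1 family genes, 1 was lost (3.33%, 0.0844 to 17.2), and within 50000 bp 7 of 56 (12.5%). The one within 10000 bp lay upstream of Bach1, a repressor that binds antioxidant response elements, at chr16:87689328-87689727, and it stood at 97.7 in Hras.E1A+TSA, 77.9 in Hras.E1A, 56.3 in Hras.Myc+PD, 92.3 in Hras.Myc+TSA, 98.0 in Hras.Myc and 47.6 in Hdac7SA.Mef2d. The Dusp7 and Bach1 loci thus ranked high in the untreated lines and lower in Hras.Myc+PD.

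The share lost at adhesion and invasion genes depended on the window. Within 10000 bp, 7 of 80 loci of adhesion and actin genes (8.75%, 3.59 to 17.2) and 3 of 34 loci of invasion genes known as AP-1 targets (8.82%, 1.86 to 23.7) were lost, against 6.10% over all genes, which both intervals include. Within 5000 bp the adhesion list turned the other way, with 1 of 54 (1.85%) against 3.61% over all genes, and the invasion list had 1 of 23 (4.35%). Within 50000 bp these were 34 of 176 (19.3%, 13.8 to 25.9) and 16 of 62 (25.8%, 15.5 to 38.5), against 3236 of 31908 over all genes (10.1%, 9.81 to 10.5). With promoter loci left out they were 34 of 129 (26.4%, 19 to 34.8) and 16 of 42 (38.1%, 23.6 to 54.4), against 16.1%. The lists share Itgb1, an integrin subunit, with 4 of 8 loci lost, and were chosen here out of 17 lists after their values were seen.

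Mical2, an actin-oxidizing enzyme, had 4 loci lost within 50000 bp, each with 1 AP-1 motif and each with a peak in Hdac7SA.Mef2d. The one at chr7:112332471-112332870 stood at 82.9 in Hras.E1A+TSA, 91.1 in Hras.E1A, 38.1 in Hras.Myc+PD, 97.2 in Hras.Myc+TSA, 87.2 in Hras.Myc and 89.9 in Hdac7SA.Mef2d. Plaur, the urokinase receptor, had 1, at chr7:24470344-24470743 in an intron, with 2 AP-1 motifs and percentiles of 96.3, 86.1, 62.0, 98.3, 92.8 and 97.7 in the same lists. Mmp14, a membrane-bound matrix metalloproteinase, had 2 with lower scores, of which the one with AP-1 at chr14:54435188-54435587 stood at 28.9 in Hras.E1A and 16.0 in Hras.Myc+PD.

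In the other lists too, the interval of the share lost within 10000 bp included the 6.10% of all genes. Among signalling lists it was 5 of 63 loci for the Wnt pathway, including Ctnnb1 and Wnt10b, 3 of 55 for the TGF-beta and BMP pathway, at Acvr1, Ltbp2 and Bmp1, and 0 of 43 for growth factor receptors and Ras regulators, which allows up to 8.22%. Among lineage lists it was 4 of 100 for developmental transcription factors, including Meis2, Runx1 and Nkx2-5, 2 of 35 for mesenchymal genes, at Col1a2 and Vim, 3 of 40 for epithelial genes, at Esrp2, Ovol1 and Pkp3, and 1 of 22 for pluripotency genes, at Klf4. It was 3 of 50 for cell cycle genes and 6 of 56 (10.7%) for chromatin and histone acetylation genes, 2 of them at Dnmt1, the maintenance DNA methyltransferase. For marker genes of other lineages it was 3 of 20 (15%) for neural genes, all at Pax6, 1 of 9 (11.1%) for blood and macrophage genes, 0 of 11 for endothelial genes and 0 of 13 for muscle genes.

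A few single loci of these lists had high scores. Upstream of Cdkn2a, the locus of the Ink4a and Arf tumour suppressors, the locus at chr4:89302142-89302541 stood at 97.3 in Hras.E1A+TSA, 98.1 in Hras.E1A, 5.57 in Hras.Myc+PD, 97.7 in Hras.Myc+TSA, 97.8 in Hras.Myc and 89.9 in Hdac7SA.Mef2d, had no AP-1 motif, and lay 995 bp from a Hras.E1A+PD peak. Its peak in Hras.Myc+PD was thus close to the bottom of that list. In an intron of Col1a2, a fibrillar collagen gene of fibroblasts, the locus at chr6:4507326-4507725 stood at 15.8 in Hras.E1A+TSA, 89.7 in Hras.E1A, 26.8 in Hras.Myc+PD, 69.5 in Hras.Myc+TSA, 69.8 in Hras.Myc and 2.33 in Hdac7SA.Mef2d. Of the genes the study names, Isl1, Tcf7l2 and Epcam had none of these loci within 50000 bp. Cdh1 had 1, in an intron at chr8:106614682-106615081, which stood at 31.7 in Hras.E1A and 6.05 in Hras.Myc+PD. Each locus was counted only at its nearest TSS, so one nearer to another gene was not counted at these genes. The study gave Isl1 and Tcf7l2 as examples of loci closed in Hras.E1A+PD and wildtype MEFs and open in Hras.E1A, Hras.Myc and Hras.Myc+PD. Its loci used a wildtype list not analysed here, so the counts are not like for like. At Cdh1 and Epcam it describes closing with PD in both Hras lines, and 2 and 1 loci within 50000 bp were closed in both here.

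The labelled cell type was checked at promoters. Between 9 and 12 of 12 fibroblast marker genes had a promoter peak in the 7 lists, and between 1 and 2 of 5 blood and macrophage markers, between 1 and 3 of 5 endothelial markers and 1 of 5 pluripotency markers. Epithelial markers were open too, at 5 or 6 of 6 genes in each list, and neural markers at 2 to 5 of 5, so an open promoter did not separate these cell types. The lists held between 56774 and 119251 peaks.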

How the data were processed

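ATAC-seq libraries of 12 samples in 7 groups were deposited as 1 peak list for each group, so replicates were pooled by the authors. Per the labels, Bowtie2 2.4.5 and MACS2 2.2.7.1 were used with the mm10 genome, and the methods of the study add that low-scoring peaks were recovered with redefine_peaks using the peaks of other samples. In the files, 70.2% to 99.0% of the peaks of a list began at the same base as a peak of another list. All deposited peaks had a width of 400 bp, and the authors do not state the scale of their score, which served here only to rank peaks within a list. Depth is unknown, since no counts are given.

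Peaks overlapping by 1 bp were merged (chromosomes 1 to 19, X and Y). Loci were annotated with the GENCODE M21 basic annotation of GRCm38, the assembly named mm10, and sequence came from the RefSeq copy of that assembly. No peak lay past a chromosome end. For 32 consensus motifs, both strands of the central 200 bp were scanned. Comparison shares were weighted to 10 GC bins of the member loci, with approximate 95% intervals, and other shares have exact Clopper-Pearson 95% intervals. Neighbouring loci are not independent. No test across replicates was possible. The merging and the ratios were tested on simulated data (Python 3.11.15, numpy 2.4.6, scipy 1.17.1, pandas 2.3.3).

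The loci, gene lists and motifs were chosen with earlier results of these data known. Genes named were the 12 with most member loci within 10000 bp of a TSS, with ties decided by member loci within 50000 bp, then alphabetically, up to 3 per gene list, Isl1, Tcf7l2, Cdh1, Epcam and the genes nearest to the printed sequences. Predicted genes were left out, and part of these names is printed. Printed sequences were ranked by the lowest of their percentiles in Hras.E1A, Hras.Myc and Hras.Myc+PD. Loci at promoters, in exons or on chromosomes barred from printing were left out of this ranking.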

Additional observations from a re-analysis of the deposited data

How the results depend on the processing

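Of 86 values recomputed under other settings, 63 stayed within the counting interval of the reported value, or within 1.5 times the reported count and no AP-1 ratio crossed 1. Of the 17 gene lists, 12 changed side relative to all genes between the windows of 5000, 10000 and 50000 bp. Without the lowest-scoring 25% of peaks in each list the share of loci open was 77.1% in Hdac7SA.Mef2d, 88.6% in Hras.E1A+TSA and 82.2% in Hras.Myc+TSA, the share at promoters was 7.98%, and the AP-1 ratio over loci closed in both lines was 0.902. With lists of equal size these were 52.2% in Hdac7SA.Mef2d, 87.9% in Hras.E1A+TSA, 2.33% at promoters and 0.972. The AP-1 ratio over kept loci was 2.77 in the central 100 bp, 3.83 without GC weighting and 2.45 without promoter loci. A promoter window of 500 bp gave 3.10%. In the gene window of 50000 bp the share lost was 10.1% over all genes, 25.8% for invasion genes and 19.3% for adhesion genes, and 16.1%, 38.1% and 26.4% without promoter loci, a setting chosen after seeing the data, as were the comparison sets with lists of equal size. In the window of 5000 bp it was 3.61% over all genes, 1.85% for adhesion genes, and 0 for AP-1 factors and pluripotency genes. A cover of 50% of the locus, a tolerance of 500 bp, autosomes alone and a catalogue without the TSA lists moved none of the values they were applied to. The cover and the catalogue without TSA had little room to act, because 99.4% of the loci closed only in Hras.E1A were 400 bp wide, the width of 1 peak. Both returned the reported values unchanged, and these values are among the 63. No paired analysis was possible because the replicates of a group were pooled in 1 list, and for the same reason no replicate could be left out. The lists give no depth, so whether a locus lost its reads or fell below the calling threshold cannot be told apart.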
